A study of Mus musculus with 5 samples.

Results

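This report covers the elastic fiber and fibulin genes of cultured mouse cardiac fibroblasts (CF), 10 genes chosen by name out of 20365 gene names in the tables: Eln, Fbn1, Fbln1, Fbln2, Fbln5, Efemp1, Efemp2, Mfap2, Mfap4 and Mfap5. All 10 were present and had reads in every library. The CF came from healthy adult male C57Bl/6J wildtype hearts and were grown to confluency in a 24-well plate after magnetic removal of CD31+ and CD45+ cells. SLAMseq was run on 5 libraries, 3 from CF given 0.1 mM 4-thiouridine (S4U) for 12 h (labeled) and 2 from CF kept 12 h in medium lacking S4U (unlabeled), and RNA of both groups was alkylated. S4U enters RNA made during the incubation, and after alkylation these positions are read as C where the genome has T. The T>C conversion rate, conversions divided by covered T positions, thus increases with the newly made share of a transcript. The study's methods name separate CF preparations as the replicates of SLAMseq, while the labels do not say which libraries share a preparation, so p-values measure the spread between these libraries.

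Elastic fibers give heart valves, vessel walls and myocardium their recoil. Fibroblasts and smooth muscle cells secrete tropoelastin, the soluble product of Eln, which is laid down on a scaffold of fibrillin microfibrils and cross-linked there by lysyl oxidases into lasting elastin. Fibulins are extracellular adaptor proteins: Fbln5 and Efemp2 (fibulin-4) bring tropoelastin and lysyl oxidase to the fiber, and Mfap2 and Mfap5 are small glycoproteins of the microfibril itself.

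Libraries held between 506045 (labeled replicate 3) and 1842706 (unlabeled replicate 1) reads on 1 interval per gene. Reads of 3′ end libraries come from near the poly(A) end, about 1 per transcript, so a level is given as counts per 1e+06 of these counted reads (CPM) and is not divided by length. Summed levels of 8 fibroblast markers were between 23099 and 33086 CPM, and all 8 had reads in every library. The endothelial list summed to 125 to 213 CPM and the immune list to 63.4 to 115 CPM, the types the depletion targets. Cardiomyocyte genes summed to 0.634 to 8.03 CPM, with Myl2 and Ryr2 at 0 reads throughout. In these bulk samples, fewer cells of a type and less RNA per cell cannot be told apart.

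The members were read in the last part of their transcripts. On GRCm39 the intervals were, for Eln chr5:134731449-134732634 (minus strand), Fbn1 chr2:125142514-125143505 (minus), Fbln1 chr15:85169381-85170495 (plus), Fbln2 chr6:91248862-91249522 (plus), Fbln5 chr12:101712824-101717000 (minus), Efemp1 chr11:28876319-28876740 (plus), Efemp2 chr19:5531751-5532548 (plus), Mfap2 chr4:140742892-140743285 (plus), Mfap4 chr11:61378828-61379531 (plus) and Mfap5 chr6:122505391-122506249 (plus). Of these, 9 lay inside an annotated 3′ UTR exon of their gene. The Efemp2 interval ran 3 bases past the annotated end and overlapped an exon of Mus81 on the other strand, and the Efemp1 interval lay opposite the lncRNA gene Gm74394, outside its exons.

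The miR-29 family, known to target several matrix transcripts, has its seed (bases 2 to 8, in capitals) printed here because the complement of that seed occurs in 4 of the 10 intervals. The 3 mature sequences, from RefSeq, share it.
mmu-miR-29a-3p: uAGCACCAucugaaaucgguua
mmu-miR-29b-3p: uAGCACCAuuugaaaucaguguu
mmu-miR-29c-3p: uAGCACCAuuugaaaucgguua
The letters TGGTGCT were searched on the transcribed strand only. They occurred 3 times in Eln, 2 times in Fbn1, 2 times in Mfap5 and 1 time in Mfap2, and not in the other 6 intervals. Each match is shown in capitals in its 29-base window of GRCm39, written along the transcript.
Eln, chr5:134732580-134732608, minus strand: ctcatcaacgtTGGTGCTactgcttggtg
Eln, chr5:134732333-134732361, minus strand: ccaagggaaatTGGTGCTacatgttggtg
Eln, chr5:134732320-134732348, minus strand: gtgctacatgtTGGTGCTtcttctttgtg
Fbn1, chr2:125143083-125143111, minus strand: tgttgtctgttTGGTGCTagtaaattctc
Fbn1, chr2:125142833-125142861, minus strand: agggtttgtaaTGGTGCTtattaagacca
Mfap2, chr4:140742946-140742974, plus strand: cctgcctgaccTGGTGCTttctccccatc
Mfap5, chr6:122505523-122505551, plus strand: ctaattttcacTGGTGCTggtaacgtttg
Mfap5, chr6:122505746-122505774, plus strand: ttttttttaaaTGGTGCTatgaattgatc
The same letters occurred in 11.8% of 20329 chosen intervals with a sequence, and the shares in intervals within 10% of each member's length add up to 1.10 members. The third window of Eln begins inside the second, so both share bases. ATTTA, a core of AU-rich elements, occurred in 6 of 10 members against 58.2% of all intervals. The Pumilio letters TGTANATA occurred in 0 of 10 members against 20.8%. A match of letters is a description of the sequence, and miRNAs were not measured in these libraries.

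Within the scaffold, Fbn1 (fibrillin-1, the main protein of microfibrils) was read at 768, 935 and 783 CPM in labeled replicates 1, 2 and 3 and at 736 and 1001 CPM in unlabeled replicates 1 and 2. These ranges overlapped. Mfap5 (MAGP-2, which binds fibrillin) was read at 470, 714 and 532 CPM in labeled libraries and at 245 and 398 CPM in unlabeled libraries. Every labeled library lay above both unlabeled ones. Mfap2 (MAGP-1) was the member with the fewest reads, 21 to 45 per library, at 28.6, 28.5 and 41.5 CPM labeled and 22.2 and 27.1 CPM unlabeled. Its labeled libraries also lay above the unlabeled ones, with 28.5 CPM as the lowest labeled and 27.1 CPM as the highest unlabeled value.

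Eln itself was read at 208, 201 and 217 CPM in labeled libraries and at 322 and 338 CPM in unlabeled libraries. The groups did not overlap, and the SD over the 3 labeled libraries was 8.28 CPM. Mfap4, a fibrinogen-related protein that binds tropoelastin and fibrillin, was read at 408, 208 and 257 CPM labeled and 516 and 213 CPM unlabeled. Here both libraries numbered 1 were the highest, and labeled and unlabeled values interleaved.

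Among the fibulins, Fbln2 was the most abundant member of all in each labeled library, at 1182, 1233 and 1196 CPM. It was read at 753 and 731 CPM in unlabeled libraries, and the groups did not overlap. In unlabeled replicate 2 Fbn1 was higher, at 1001 CPM. Fbln5, which tethers tropoelastin to cells, was read at 214, 454 and 425 CPM labeled and 200 and 518 CPM unlabeled. Its lowest values were in both libraries numbered 1, opposite to Mfap4. Efemp2 was read at 472, 372 and 261 CPM labeled and 315 and 236 CPM unlabeled, with overlap. Fbln1 was read at 239, 345 and 326 CPM labeled and 281 and 327 CPM unlabeled, with overlap. Efemp1 (fibulin-3) was lower in each labeled library, at 178, 128 and 130 CPM against 198 and 205 CPM.

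**Figure D1:**
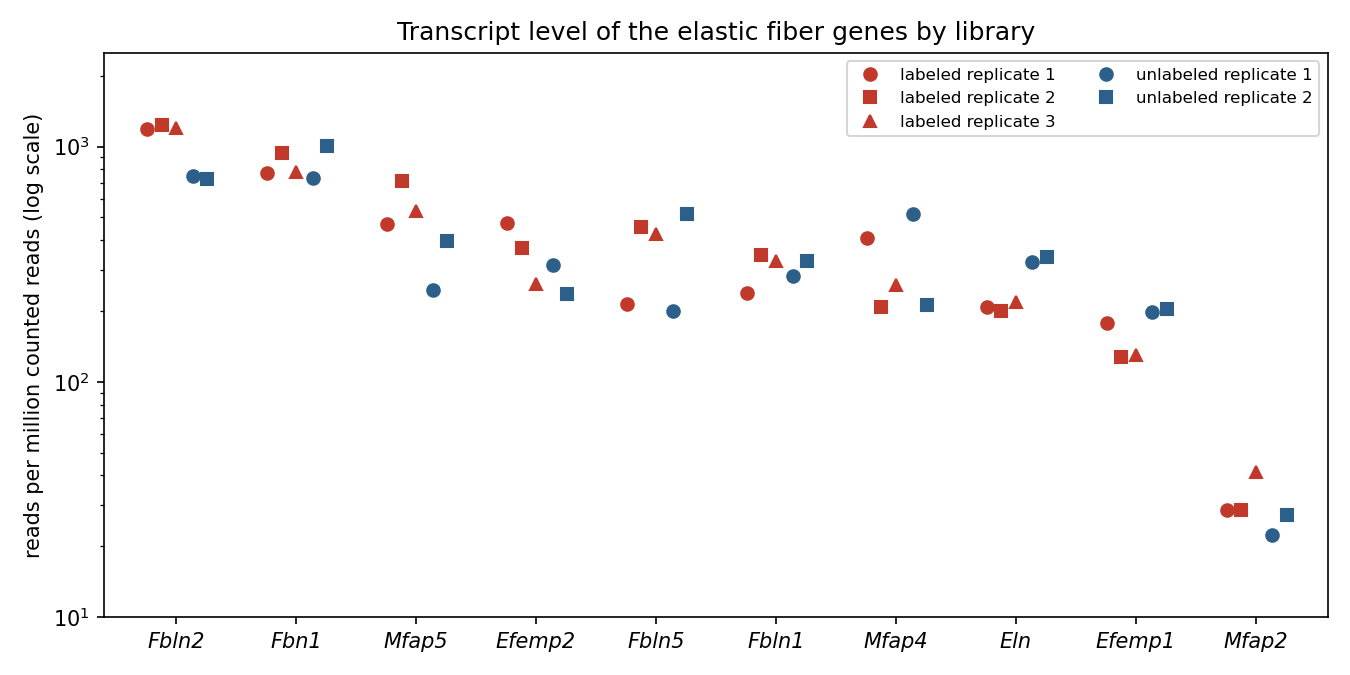
Level of each gene in CPM (log axis) in the 3 labeled and 2 unlabeled libraries, 1 point per library, genes ordered by their labeled mean. Fbln2 is highest in the labeled libraries, and Fbn1 lies above it in unlabeled replicate 2. Mfap2 is lowest, and Fbln5 and Mfap4 split by replicate number.

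In the order of labeled means the levels ran Fbln2, Fbn1, Mfap5, Efemp2, Fbln5, Fbln1, Mfap4, Eln, Efemp1 and Mfap2, from 1203 ± 26.2 CPM (SD, n = 3) for Fbln2 to 32.8 ± 7.50 CPM (SD, n = 3) for Mfap2. Neighbours were separated without overlap of their labeled libraries at 4 of 9 steps: Fbln2 over Fbn1, Fbn1 over Mfap5, Eln over Efemp1, and Efemp1 over Mfap2. From Mfap5 down to Eln, no neighbour was separated from the next. Together the 10 genes took 0.359% to 0.462% of the counted reads.

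Newly made RNA was seen for all 10 genes, but at lower rates than for most transcripts covered as deeply. The labeled T>C rate exceeded both unlabeled rates in every labeled library for each member, and 10 of 10 passed the beta-binomial test at an unadjusted p below 0.05, where 95.1% of the 11177 genes tested did. Of 2103 genes covered at 1000 Ts or more in each library (called deeply covered here), the median rate was 0.0388 and the lower quartile 0.0343. The 9 members in that set had rates of 0.00621 to 0.0274, all under the lower quartile. The tenth, Mfap2, had 382 to 648 covered Ts per library. The median of all 10 was 0.0163.

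The members fell into a higher set, an intermediate set and a low set. Mfap5 had the highest rate, 0.0300, 0.0266 and 0.0256 in labeled replicates 1, 2 and 3 against 0.000406 and 0.000124 in unlabeled replicates 1 and 2. It stood at percentile 13.3 of the deeply covered genes. Fbn1 followed at 0.0235, 0.0269 and 0.0242, and Fbln2 at 0.0227, 0.0217 and 0.0238. Both Mfap5 and Fbn1 are microfibril genes, while Fbln2 binds several basement membrane and elastic fiber proteins.

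The intermediate set began below Fbln2, where the labeled libraries did not overlap. Mfap2 had rates of 0.0174, 0.0185 and 0.0183, and no conversion in 560 and 551 covered Ts of the unlabeled libraries, which allows rates of up to 0.00536 and 0.00544. Eln had rates of 0.0161, 0.0149 and 0.0196, from 100, 71 and 42 conversions, against 0.000625 and 0.000144 unlabeled. Efemp2 had rates of 0.0185, 0.0172 and 0.0116. The 3 genes overlapped, and a mean of 0.0169 ± 0.00245 (SD, n = 3) put Eln at percentile 5.61.

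The low set held Fbln5, Efemp1, Fbln1 and Mfap4. The first 3 lay below every labeled library of Efemp2. Fbln5 had rates of 0.0114, 0.0109 and 0.00811, Efemp1 of 0.00654, 0.00848 and 0.00451, and Fbln1 of 0.00507, 0.00914 and 0.00444. These 3 are fibulins, as is Efemp2. With a mean of 0.00621 ± 0.00255 (SD, n = 3), Fbln1 stood at percentile 0.285 of deeply covered genes. Mfap4 had rates of 0.0133 in labeled replicate 1 and of 0.00546 and 0.00498 in replicates 2 and 3, and the first of these lay above the lowest Efemp2 library (0.0116). Without replicate 1 its mean fell from 0.00791 to 0.00522, below Efemp1 and Fbln1, and its place in the order rests on that library. Order by library kept Mfap5, Fbn1 and Fbln2 in the first 3 places in all 3 labeled libraries, with Mfap5 first in 2 of them.

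In the order of mean labeled rates, the 4 genes with a miR-29 seed match held places 1, 2, 4 and 5 of the 10. Eln, at place 5, lay above the next gene, Efemp2, in 1 of 3 labeled libraries, so its place is not settled. This is a description with no test.

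**Figure D2:**
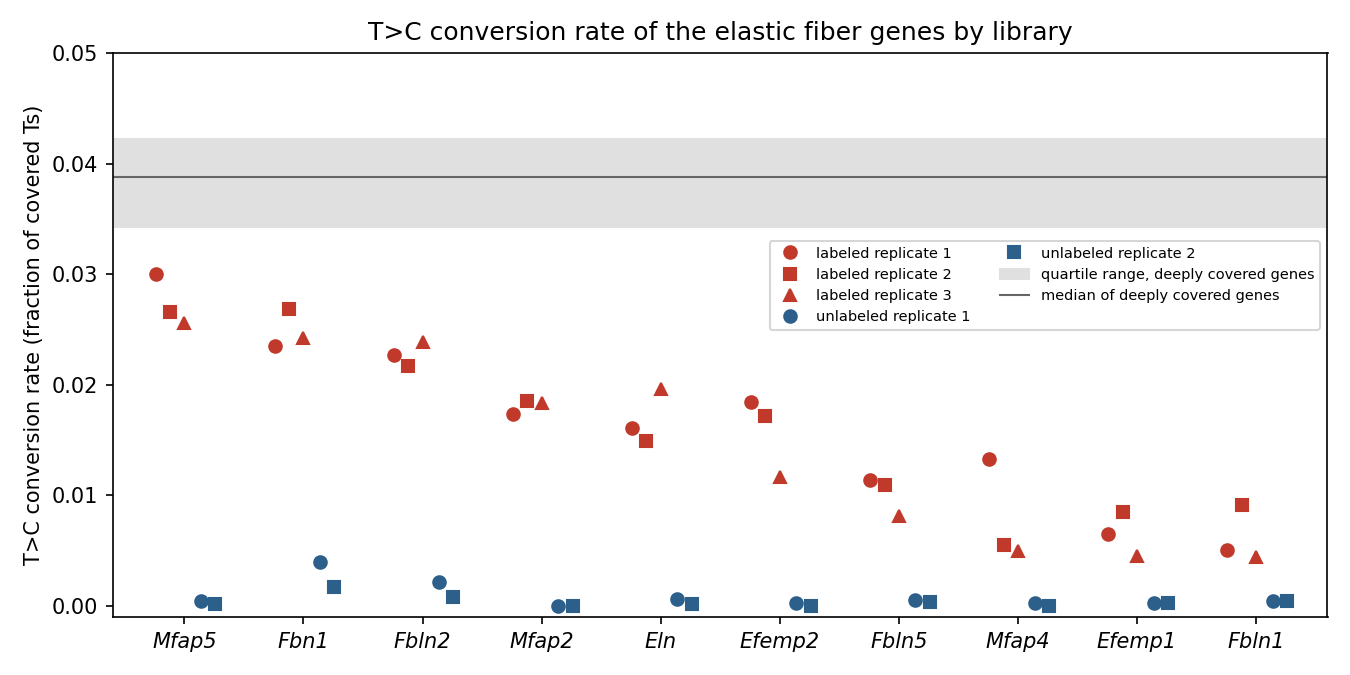
T>C conversion rate (fraction of covered Ts) of each gene in the 3 labeled and 2 unlabeled libraries, 1 point per library, with the range between the quartiles and the median of 2103 deeply covered genes as a band and a line. All labeled points lie under the band, and the unlabeled points of Fbn1 and Fbln2 stand above those of the other members.

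Reads with at least 1 conversion made up 33.9% ± 1.74 (SD, n = 3) of the Mfap5 reads, 32.6% ± 3.82 of Fbn1 and 25.5% ± 3.90 of Eln, down to 6.13% ± 0.869 of Fbln1. Efemp2 reached 11.3% ± 2.31 by this measure although its rate was near that of Eln. In 3 of the 50 member values (Eln in unlabeled replicate 1, Mfap4 in labeled replicate 3 and unlabeled replicate 1), the deposited count of reads with a conversion exceeded that of conversions, so the columns do not count exactly the same events. Labeled Efemp2 reads covered 7.80 Ts each on average, against 19.4 for Eln. Mfap4 reads covered 7.60 and 7.97 Ts in the libraries numbered 1 and 10.8 to 12.5 in the other 3. Over all chosen intervals the libraries numbered 1 were lowest too, at 18.2 (labeled) and 19.3 (unlabeled) covered Ts per read against 20.6 to 21.5. They were also lowest in each other member except Fbln2, with Mfap2 at 12.8 and 13.7 against 18.2 to 20.4. The part of read position in the rates of Mfap4 was not tested.

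Unlabeled conversions were few in 8 of the members, with at most 7 in a library. Fbn1 had 96 and 37 conversions without S4U, a rate of 0.00397 and 0.00170, and Fbln2 had 51 and 10, a rate of 0.00215 and 0.000810. The median unlabeled rate of the deeply covered genes was 0.000504. In Fbn1 all of these conversions lay in the distal 347 bases, with unlabeled rates of 0.00824 and 0.00237 there and of 0 in the 645 bases before them. Subtracting the unlabeled mean brought Fbn1 from 0.0249 to 0.0220 and Fbln2 from 0.0227 to 0.0212.

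Nested intervals allowed reads to be assigned to a proximal and a distal piece of the 3′ UTR in Eln and Fbn1, and Fbln1 had separate intervals for separate last exons. The shorter Eln interval stops at an annotated transcript end, and the shorter Fbn1 interval does not, so its pieces are parts of 1 annotated 3′ UTR. In Eln, the distal 243 bases alone held 77.4% of reads in labeled replicate 1 (95% exact binomial interval 72.5% to 81.8%) and 73.7% (70.0% to 77.2%) in unlabeled replicate 1. The shares were 28.3% (22.7% to 34.5%) and 21.8% (14.5% to 30.7%) in labeled replicates 2 and 3 and 28.2% (23.4% to 33.3%) in unlabeled replicate 2. Intervals cover counting error only. Both libraries numbered 1 were high, with or without S4U, while the Eln level of labeled replicate 1 lay between those of the other labeled libraries. All 3 Eln seed matches lie in the shared proximal 943 bases.

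In Eln the T>C rates of both pieces differed by less than their spread. The labeled T>C rate was 0.0166 ± 0.00156 (SD, n = 3) in the distal piece and 0.0162 ± 0.00335 in the shorter interval. In Fbn1 the distal 347 bases held 58.0%, 71.7% and 68.4% of reads in labeled replicates 1 to 3 and 56.6% and 72.4% in unlabeled replicates 1 and 2. The labeled rate there was 0.0266, 0.0306 and 0.0275, against 0.0205, 0.0172 and 0.0183 in the proximal 645 bases. The distal rate was higher in 3 of 3 libraries, beside the unlabeled rates given above for the same piece. The second Fbn1 seed match starts 656 bases into the interval, in the distal piece.

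Fbln1 ends either at chr15:85136001-85136086, the last exon (15) of its canonical transcript, or in the chosen interval further downstream. The upstream end took 7.14% (4.84% to 10.1%), 31.8% (28.1% to 35.7%) and 16.7% (11.8% to 22.6%) of the reads of both ends in labeled replicates 1, 2 and 3, and 5.66% (3.88% to 7.93%) and 31.7% (27.5% to 36.0%) in unlabeled replicates 1 and 2. Both libraries numbered 1 were again on one side. Conversions at the upstream end were 3 of 410, 12 of 3086 and 0 of 595 covered Ts in labeled replicates 1, 2 and 3, also low. In Fbln5 the 3372 bases past the shorter interval held at most 1.08% of its reads, and in Efemp2 the 666 extra bases, which include the overlap with Mus81, held 2.41% to 5.30%.

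**Figure D3:**
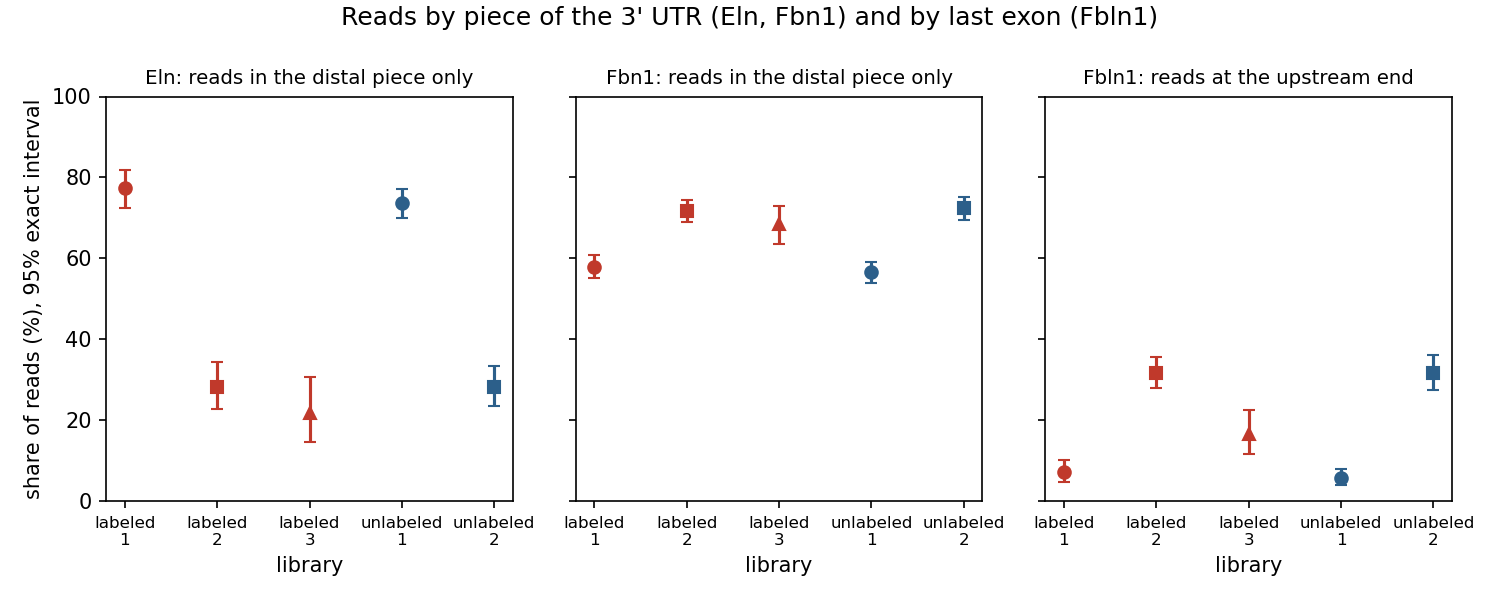
Share of reads (%) in the distal piece of Eln and of Fbn1 and at the upstream end of Fbln1, 1 point per library with its 95% exact binomial interval. In Eln both libraries numbered 1 lie above 70% and the other 3 below 30%.

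The comparison of reads asks whether 12 h of S4U went with a change in the amount of these transcripts. With edgeR's quasi-likelihood test and Benjamini-Hochberg adjustment, 0 of 10 members and 0% of 9806 genes passed an adjusted p of 0.05. At an unadjusted p below 0.05 edgeR put 279 genes higher in labeled libraries and 307 lower, and DESeq2 gave 18 adjusted calls. Fbln2 and Mfap5 were among the higher ones (2 of 10, where 2.85% of all genes were), and Eln among the lower (1 of 10, where 3.13% were). With the replicate number as a block in edgeR, Fbln2, Mfap5 and Efemp2 were called higher and Eln lower. Of all genes, 5.39% were called higher and 6.29% lower in that fit. The labels do not say whether a number pairs libraries, and the blocked fit left 1 residual degree of freedom.

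Fbln2 had a log2 change of 0.78 (SE 0.23), with an unadjusted p of 0.0114 and an adjusted p of 0.678 by edgeR. Mfap5 had a log2 change of 0.90 (SE 0.34), with an unadjusted p of 0.0333 and an adjusted p of 0.777 by edgeR. Eln had a log2 change of -0.59 (SE 0.23), with an unadjusted p of 0.0358 and an adjusted p of 0.789 by edgeR. Its unadjusted p was 0.0776 with DESeq2, 0.0540 with edgeR lacking a low-count filter and 0.144 with edgeR on summed intervals. The direction of these 3 held when each library was left out, with Mfap5 at 0.55 without unlabeled replicate 1 and at 1.35 without unlabeled replicate 2, but edgeR's unadjusted p was over 0.05 without either unlabeled library for Fbln2 (0.0517 and 0.0731), without labeled replicate 2 or 3 or unlabeled replicate 1 for Mfap5 (0.0677 to 0.211), and without any 1 of the 5 libraries for Eln (0.0629 to 0.171).

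Efemp2 had a log2 change of 0.50 (SE 0.30), Mfap2 of 0.47 (SE 0.36) and Efemp1 of -0.39 (SE 0.25). Without labeled replicate 1 Efemp2 was at 0.30, and Mfap2 was at 0.28 without labeled replicate 3 and at 0.27 without unlabeled replicate 1. For Fbln5 (0.08, SE 0.51), Fbln1 (0.07, SE 0.28), Fbn1 (0.0015, SE 0.27) and Mfap4 (-0.24, SE 0.42), the sign changed with the setting or the library left out. Counted without a model, every labeled library lay above both unlabeled ones in 3 members (Fbln2, Mfap2, Mfap5), as for 8.21% of all genes tested, and below both in 2 (Eln, Efemp1), as for 13.1%. The same 5 were separated with TMM library sizes. On the deposited CPM, which has another divisor per library, 1 of them (Eln) was. An exact permutation test of 3 libraries against 2 cannot go below 0.1, one-sided.

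Of the marker sums, the fibroblast and epicardial ones did not overlap between the groups, and the smooth muscle and pericyte ones touched at 1042 CPM. The endothelial, immune and cardiomyocyte sums overlapped. The smooth muscle and pericyte list summed to 1042, 1988 and 2488 CPM in the labeled and 552 and 1042 CPM in the unlabeled libraries, with Acta2 and Tagln making up most of it and Myh11 at 0 reads in every library. Within it Tagln, Cnn1 and Cspg4 were higher in every labeled library, and Acta2, Notch3, Rgs5 and Kcnj8 overlapped. Cspg4 rested on 7, 4 and 3 reads in the labeled and 2 and 1 in the unlabeled libraries. The 8 fibroblast markers summed to 29996 to 33086 CPM labeled and 23099 to 27113 CPM unlabeled, a difference that lay mostly in Col1a1, whose groups did not overlap, and Col1a2, whose groups did. Pdgfra, at 516 to 525 CPM labeled against 722 and 841 CPM, and Ddr2, at 245 to 332 CPM against 382 and 453 CPM, were lower in every labeled library, and the other 4 overlapped. Epicardial genes summed to 3.81 to 5.93 CPM labeled and 0.543 to 2.01 CPM unlabeled, with 1 of 5 (Wt1) read in every library and Msln and Krt19 at 0. Wt1 had 6, 5 and 3 reads in the labeled and 1 read in each unlabeled library, so these sums rest on few reads. The study's isolation included a collagenase bath of the heart, discarded afterwards, to remove epicardial cells. The part of these marker differences in the read differences of Fbln2, Mfap5 and Eln was not tested.

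**Figure D4:**
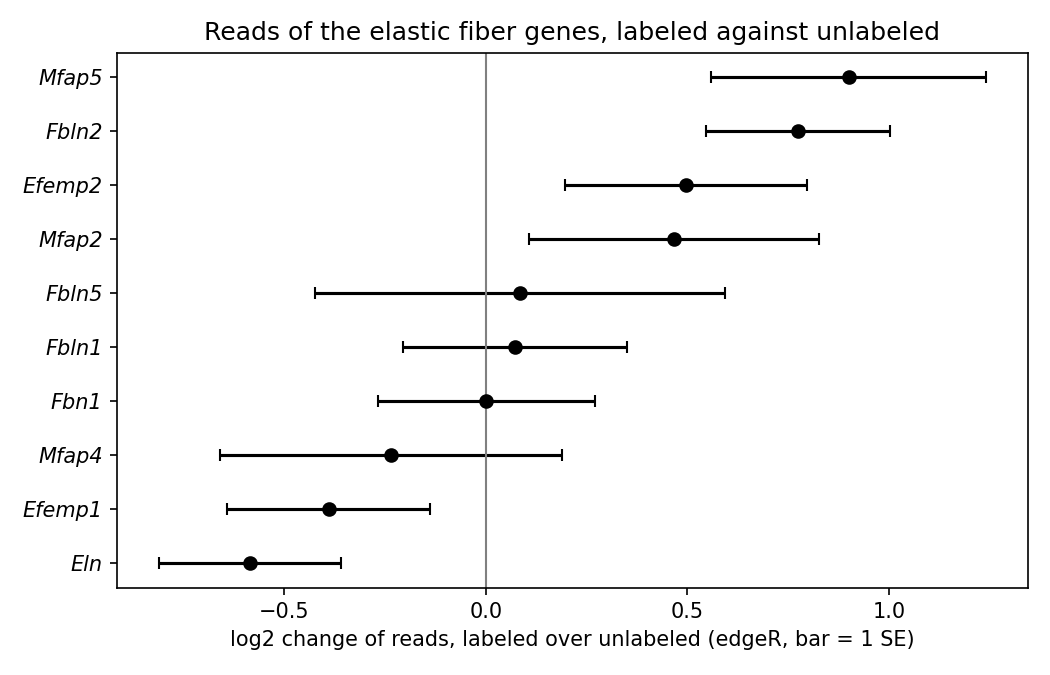
Log2 change of reads in labeled over unlabeled libraries with its SE (edgeR, 3 against 2 libraries), genes ordered by the change. Mfap5 and Fbln2 lie highest and Eln lowest, and no gene passed an adjusted p of 0.05 in this fit without the replicate block.

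The wider pathway was read from lists of genes that assemble or cross-link the fiber and of enzymes that cut elastin. Of 21 assembly and cross-linking genes, 19 were tested, with 0 adjusted calls by edgeR, and at an unadjusted p below 0.05 there were 4 higher and 2 lower, where 2.85% and 3.13% of all genes tested were. These 6, named after their values were seen, were the latent TGF-β binding proteins Ltbp1 (log2 change 0.82, SE 0.30) and Ltbp2 (1.97, SE 0.64), the lysyl oxidases Lox (0.64, SE 0.23) and Loxl3 (0.79, SE 0.27), the fibrillin Fbn2 (-0.82, SE 0.30) and the growth factor Tgfb2 (-0.80, SE 0.24). The list's median log2 change was 0.26, against 0.08 for the 10 members and 0.02 for all genes tested. Of 10 elastin-cutting enzymes, 7 were tested and 0 passed at either threshold in edgeR.

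By rate, 7 assembly genes were covered as deeply and had a median of 0.0314, nearer the median of all deep genes than the members, which had a median of 0.0158 over 9. The 3 elastin-cutting enzymes covered as deeply had a median of 0.0200. Among the 10 deeply covered genes of both lists together, highest were Tgfb2 at 0.0381 ± 0.00500 (SD, n = 3), the membrane protease Mmp14 at 0.0352 ± 0.00164 and the lysyl oxidase Loxl1 at 0.0340 ± 0.00161. Lowest among these 10 were the lysosomal protease cathepsin L (Ctsl) at 0.0141 ± 0.00125, Ltbp3 at 0.0186 ± 0.00101 and the gelatinase Mmp2 at 0.0200 ± 0.00353. Lox, the enzyme that cross-links elastin, was read at 4265 ± 396 CPM and a rate of 0.0314 ± 0.00233, with both means above those of each member. Its rate in labeled replicate 1 (0.0289) lay below that of Mfap5 (0.0300), so these libraries overlapped.

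Other matrix genes had low rates too. The 13 collagen chains had a median rate of 0.0224, 11 of them under the lower quartile of deep genes, with Col1a1 at 0.0259 ± 0.00199 (SD, n = 3), Col1a2 at 0.0200 ± 0.000741 and Col3a1 at 0.0151 ± 0.00143. The 5 small leucine-rich proteoglycans covered as deeply had a median of 0.0141, all under the lower quartile. A low rate was shared with these matrix lists, while the means of Fbln1, Efemp1 and Mfap4 lay below that of the lowest collagen, Col6a1 (0.00926), and of the lowest proteoglycan, Bgn (0.00976). The libraries of Fbln1 (up to 0.00914) and Mfap4 (up to 0.0133) overlapped those of Col6a1 (from 0.00897), and all 3 members overlapped Col6a2 (from 0.00479), so none of them is separated from both collagens beyond the spread.

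**Figure D5:**
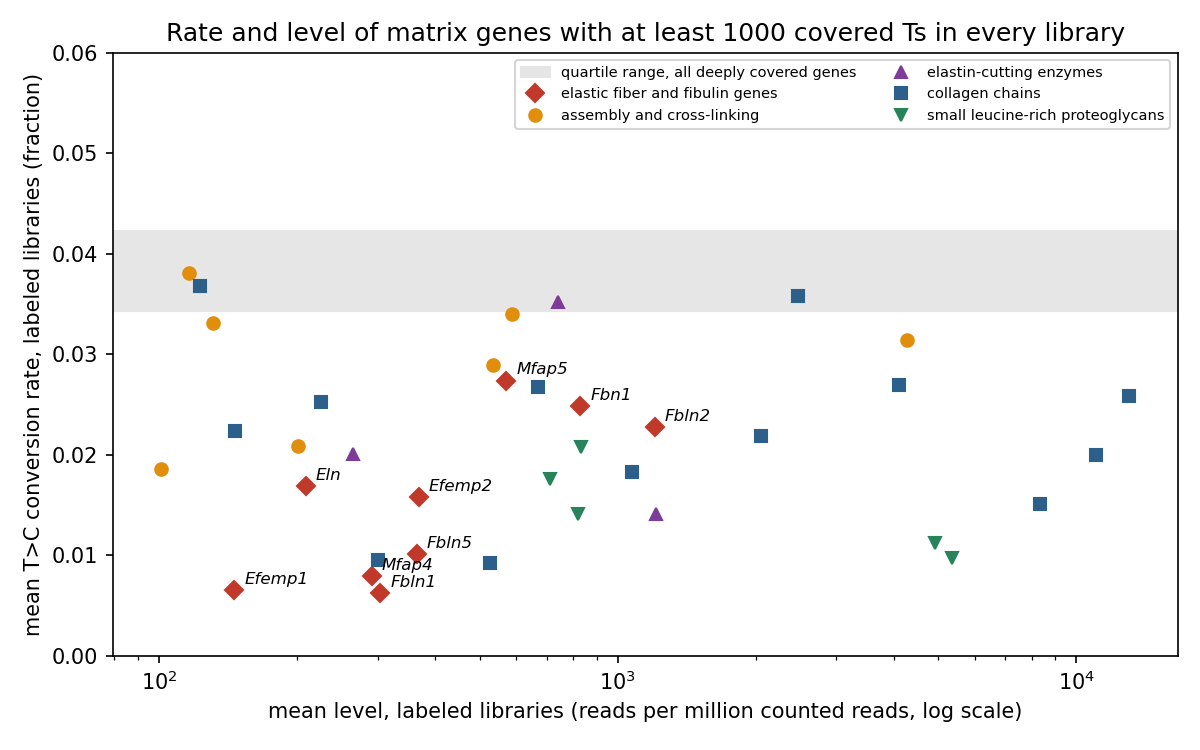
Mean T>C conversion rate (fraction) against mean level (CPM, log axis) in the labeled libraries, for the deeply covered genes of 5 lists, with the range between the quartiles of all 2103 such genes as a band. The 9 elastic fiber genes lie under the band, Mfap5 nearest to it and Fbln1 farthest.

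The genes nearest to Eln and Fbn1 in T>C rate were found among 1413 deeply covered genes at 100 CPM or more in each library, by the mean absolute log2 ratio of rates over the 3 labeled libraries. For Eln these were Gstm2 (0.11), Pam (0.11) and Ildr2 (0.14). For Fbn1 they were Serinc3 (0.04), 9530068E07Rik (0.05) and Rpl26 (0.05). With 3 libraries this is a coarse likeness.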

How the data were processed

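SLAMseq libraries of CF were grouped by the submitters' labels. The authors ran SLAM-DUNK 0.4.3 against mm39, with UMI handled by umi-tools before and after mapping, and counted on 3′ UTR intervals (their origin is not given in the sources used here). The authors deposited per interval the counts of reads, reads with a conversion, covered Ts and conversions, none of them normalized. The conversion rate they deposited is a fraction, and the deposited CPM divides reads by 1 number per library that exceeds the reads counted here. This number was 11942554 in labeled replicate 1 and 14616278 in labeled replicate 3, where 1576048 and 506045 reads were counted. The labeled mean of Eln was 17.3 CPM on that scale and 209 CPM on the scale used here.

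Repeated rows were used once, and T content of 40380 of 40380 intervals equaled GRCm39. Each gene was read on 1 interval, the one with the highest mean of the deposited CPM over labeled libraries. Levels are CPM relative to reads counted on these intervals. Rates were compared over all intervals with a beta-binomial likelihood-ratio test (1 shared overdispersion, chi-square with 1 degree of freedom, two-sided, at least 1 covered T in every library), and reads with edgeR's quasi-likelihood test (TMM, filterByExpr, Benjamini-Hochberg over all genes tested). Alternatives were DESeq2, other factors and filters, limma on log odds with a pseudocount of 0.5, coverage minimums, summed intervals, a replicate block and each library left out. Software comprised matplotlib 3.10.9, numba 0.67.0, pandas 2.3.3, scipy 1.17.1 and numpy 2.4.6 under Python 3.11.15, and limma 3.58.1, DESeq2 1.42.0 and edgeR 4.0.16 under R 4.3.3. miRNA sequences were taken from a RefSeq table of GRCm38.p6, and intervals were read from GRCm39 with the GENCODE annotation.

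Same-group libraries differed beyond sampling noise (chi-square per degree of freedom 2.20 to 18.2), so each counted as 1 sample. In simulated data with 200 genes changed by 2 on the log2 scale, edgeR recovered 156 with 9 false calls among 9054 genes. The simulated libraries were drawn independently with the same dispersion for every gene, and the change was larger than that of any member. This recovery therefore does not give the power of the test for the members. The beta-binomial test recovered 187 of 200 changed intervals of 3000 and called 4.89% of the unchanged ones.

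The members, the gene lists, the sequence features and the marker lists were chosen with earlier results of these data known. Named genes were the members, the 3 highest and 3 lowest rates of the assembly and elastin-cutting lists among deeply covered genes, and 3 collagens. Any list gene with an adjusted call in edgeR without the block (none) and the 3 genes nearest to Eln and to Fbn1 were included. The 6 assembly genes at an unadjusted p below 0.05, the blocked call of Mmp14, markers, Col6a1, Col6a2 and Bgn were named after their values were seen. Not every list gene called with the block was named. The other data types of the study were not analysed here.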

Additional observations from a re-analysis of the deposited data

How the results depend on the processing

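Raised T>C rates were called in 18200 of 19240 intervals, in 3154 at a coverage minimum of 1000 Ts and in 10629 with 1 interval per gene, where fewer intervals were tested. All 10 members passed at an unadjusted p below 0.05 under each setting that tested them. The median rate of the members was 0.0163, and became 0.201 as a share of reads with a conversion, which is another quantity. Without each labeled library in turn and under the other alternatives it moved by less than 1 SD.

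Changed read counts were called for 0 genes by edgeR, for 18 by DESeq2 (13 higher, 5 lower) and for 1146 with the replicate number as a block, which left 1 residual degree of freedom. Deviations of same-numbered libraries correlated at 0.784 and 0.638, and those of labeled replicate 3 and unlabeled replicate 2 at 0.482. With 2 unlabeled libraries, the deviations of one mirror those of the other, so these correlations are not independent of each other. The labels do not say what a number marks, and with 2 pairs the numbers were not taken to pair the libraries. With the block, 3 members were called higher (Fbln2 at a log2 change of 0.75, Mfap5 at 0.94 and Efemp2 at 0.67, edgeR adjusted p of 2.9e-05, 6.41e-08 and 0.00035) and 1 lower (Eln at -0.63, 0.000983), against 5.39% and 6.29% of all genes. The block also called 4 assembly and cross-linking genes higher and 4 lower, and 1 elastin-cutting enzyme lower (Mmp14 at -0.47, edgeR adjusted p 0.0199).

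The sign of the log2 change, none of it called, turned in 4 members. Fbn1 gave -0.00399 with DESeq2, -0.000537 with RLE factors, -0.00591 without a filter, -0.0243 with at least 10 reads in every library, -0.00549 with summed intervals, and -0.25 to 0.29 over libraries left out. With the replicate block Fbln1 gave -0.0291 and Fbln5 -0.00182. Over libraries left out, Fbln1 ranged from -0.0817 to 0.24, Fbln5 from -0.48 to 0.99 and Mfap4 from -0.71 to 0.47. The cause was not tested. The other members kept their sign in every setting. Labeled replicate 3 had the fewest reads and limits the values of Mfap2, which had 21 reads there.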
